A study of Mus musculus with 4 samples.

Results

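This account covers 9 mouse genes that belong to fibroblast growth factor (FGF) signalling: the receptors Fgfr1, Fgfr2 and Fgfr3, the feedback inhibitors Dusp6, Spry1, Spry2 and Spry4, and the target transcription factors Etv4 and Etv5. The genes were picked with earlier results of these data known, and all their probes on a 2-colour 60-base oligonucleotide array were then taken by gene name. This gave 19 probes of the 41174 on the array, and 17 of the 19 were among the 28794 probes kept as measurable. RNA came from the atrioventricular canal (AVC), where the heart tube narrows between the future upper and lower chambers and where cushions and conduction tissue arise. The Tbx3 mutant embryos, named hypomorphic in the title of the study, and the wild type controls were both at stage e10.5 and both on a mixed background (50% Sv129, 50% C57Bl6). Each of 4 arrays carried 1 pool of 5 mutant canals labelled with Cy5 (red) and 1 pool of 5 control canals labelled with Cy3 (green). The labels used here do not describe the structure of the Tbx3 allele or say whether a mutant carried 1 or 2 copies of it. Neither do they say how mutant and control pools were matched to an array, for example by litter.

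FGF ligands bind receptor tyrosine kinases at the cell surface, which signal through Ras and a chain of kinases that ends in Erk. Active Erk switches on genes that in turn damp the pathway: Dusp6 encodes a phosphatase that removes phosphate from Erk, and the Sprouty proteins act upstream of Erk. Etv4 and Etv5 are ETS-family activators whose transcripts are widely used as readouts of FGF signalling. In the embryonic heart, FGF signals act on progenitors of the second heart field, on growth of the myocardium and on valve tissue. Tbx3 encodes a T-box repressor of the canal and the conduction system, and the comparison asks how the FGF receptors and feedback genes stood in canals with less Tbx3.

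Probe sequences are shown for the genes whose mean ratio was farthest above 0 and for the pairs of probes that read overlapping stretches, since those pairs measure 1 stretch of RNA more than once. They are copied from the deposited scanner files, 5′ to 3′, with positions on build mm7 as the files give them. The Fgfr1 pair is given whole, and for each other probe 30 of its 60 bases are given. A capital marks the base at which the members of an overlapping pair differ.
Fgfr1 A_52_P668810: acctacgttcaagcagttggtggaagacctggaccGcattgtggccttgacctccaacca
Fgfr1 A_51_P109469: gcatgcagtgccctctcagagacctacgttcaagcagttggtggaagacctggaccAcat
Fgfr3 A_52_P506516: ggcaCggcagttttgtttgtactggacctg
Fgfr3 A_51_P322906: ggcaTggcagttttgtttgtactggacctg
Dusp6 A_51_P502614: catttggtggatgcaacaggttgagaggaa
Spry1 A_51_P490136: agctgagtatttccaacccttcctgtgttt
Spry2 A_52_P368532: caggaaacctttattgtaagtctctgattt
Spry2 A_51_P445153: ccccccttttaacacatatgcaaccaacta
Etv5 A_52_P631015: atgtactacacacatgtcatatagtacata
Etv5 A_51_P323579: tgttcttggctgttcctaaagcttgccctt
The Fgfr1 probes lie on the plus strand at chr8:24330065-24330124 and chr8:24330044-24330103 and share 39 bases with the substitution A57G, counted from base 1 at the 5′ end of A_51_P109469. The whole Fgfr3 probes lie on the plus strand at chr5:32799441-32799500 and chr5:32799418-32799477 and share 37 bases with the substitution T28C, counted in the same way along A_51_P322906. The stretches shown lie at chr5:32799441-32799470 for both Fgfr3 probes, at chr10:98828759-98828788 on the plus strand for Dusp6 and at chr3:37455053-37455082 on the plus strand for Spry1. On the minus strand they lie at chr14:100321884-100321913 and chr14:100322400-100322429 for Spry2, and at chr16:22032331-22032360 and chr16:22033361-22033390 for Etv5. Exons and untranslated regions are not named, since mm7 annotation was not used here.

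Before normalization the median spot signal was 175.1 to 232.5 in the mutant channels and 117.9 to 133.5 in the control channels. A ratio below is the log2 of mutant over control within 1 array after normalization, given as mean ± SD over the 4 arrays, and a level is the log2 signal of 1 channel made comparable between arrays. The dyes were not swapped, so a dye effect particular to a probe cannot be told apart from genotype. Nor can fewer cells of a type and less RNA per cell be told apart in pooled tissue. All 8 genes of an AVC muscle list, Tbx2, Tbx3, Bmp2, Bmp4, Tnnt2, Myl7, Actc1 and Hcn4, were above background in all 8 pools. The median ratio of that list was 0.24, and 4 of its genes were higher in the mutant at an unadjusted p under 0.05, among them Myl7 at 1.04, Tnnt2 at 0.60 and Actc1 at 0.57. These 3 muscle genes have a mean log2 intensity above 16, where the 331 probes of the array had median ratios of 0.27 to 0.43 on the 4 arrays. The part of muscle content in the ratios below was not tested. Tbx3 had ratios of -1.35, -1.40, -1.43 and -1.21 on arrays 1 to 4, a mean of -1.35 ± 0.10 with an adjusted p of 0.0504 over all probes. It therefore lay just outside the threshold of 0.05 in this fit, and at 0.0454 with 1 probe per gene. A second, dim Tbx3 probe averaged -0.14 ± 0.12. Array 2 stood apart: the SD of all its ratios was 0.45 against 0.26 to 0.28 on the other arrays, and its ratios correlated at -0.06 to 0.07 with theirs across 28791 probes, while arrays 3 and 4 correlated at 0.65. Its control pool had a median level of 10.77 over 8 uterine-type genes, against 6.96 to 8.44 in the 4 mutant pools and 7.29 to 7.77 in the other control pools. Results are therefore given with and without array 2.

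No FGF receptor or feedback probe passed the threshold of an adjusted p under 0.05 (limma, Benjamini-Hochberg over all 28794 probes), where 0% of all probes passed. At an unadjusted p under 0.05, 7 of the 17 probes were reached, all with a higher signal in the mutant: both Fgfr3 probes, Dusp6, Spry1, both Spry2 probes and 1 of the 2 Etv5 probes. Of all probes, 7.56% reached that mark on the higher side and 6.15% on the lower side. The 7 probes stand for 5 genes, since the probes of a gene are not independent, and Etv5 counts through its dimmer probe alone. The count was 2 without array 3 and 3 without array 4, where 7.3% and 7.31% of all probes were reached in either direction, against 13.7% with all arrays. It was 5 without array 1, where 3029 of all 28794 probes were reached in either direction. The count was 8 without array 2, where 6590 of all 28794 probes were reached, against 3948 with all arrays. Mean ratios of the 7 probes were 0.25 to 0.42 without array 3 and 0.26 to 0.40 without array 4. The median ratio of the 17 was 0.14, beside 0.01 over all probes. Means were above 0 for 14 of the 17, beside 15359 of all 28794 probes. Ratios were above 0 on all 4 arrays for 7 probes (12.9% of all probes) and below 0 on all 4 for 1 probe (10.7% of all probes).

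**Figure D1:**
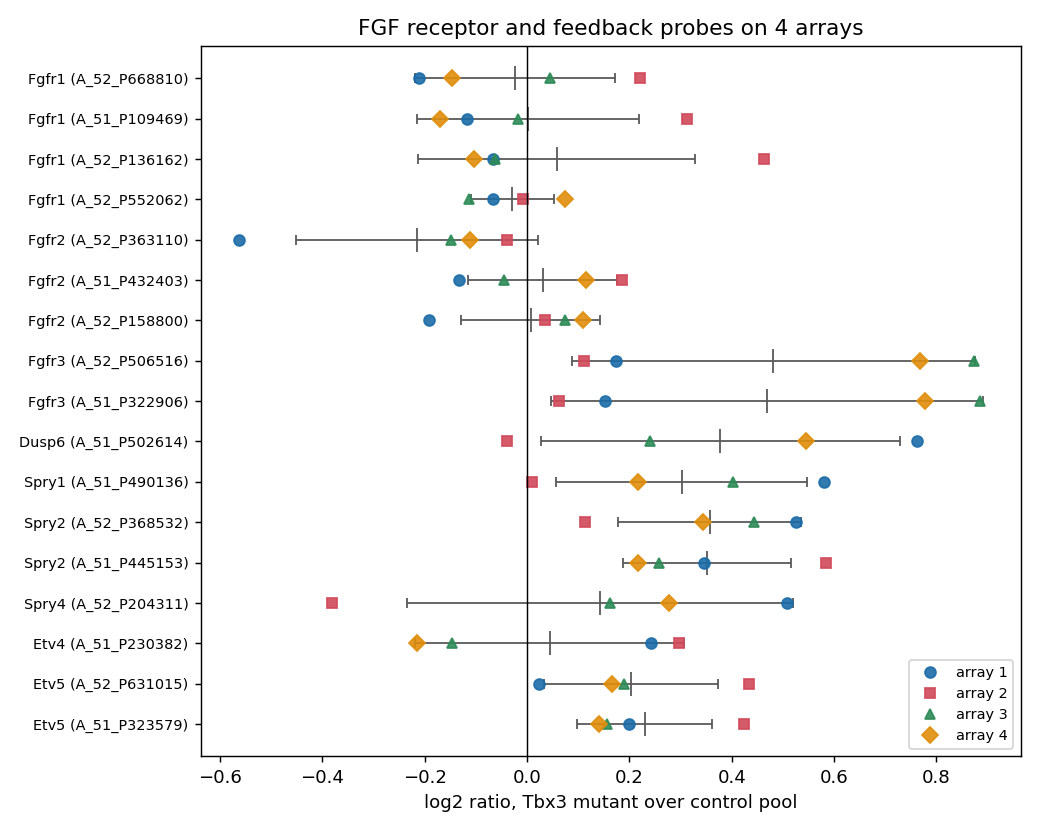
Log2 ratio of the mutant over the control pool (x axis) for the 17 measurable probes of the 9 genes (rows), with 1 symbol per array and a bar at the mean ± SD over 4 arrays. Fgfr3, Spry1, Spry2 and Etv5 lie to the right of 0 on every array, while the Fgfr1 symbols fall on both sides.

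Among the receptors, Fgfr3 had the highest mean ratio of all 9 genes, with its high values on arrays 3 and 4. Fgfr3 encodes a receptor best known for restraining growth of cartilage. Its brighter probe, A_52_P506516, had levels of 10.26, 10.07, 11.13 and 10.90 in mutant pools 1 to 4, against 10.08, 9.96, 10.26 and 10.14 in control pools 1 to 4. Mutant pools 3 and 4 lay above every control pool, while mutant pool 2 lay below 3 of the 4 control pools, so the groups overlapped. The ratios were 0.17, 0.11, 0.87 and 0.77, with a mean of 0.48 ± 0.39 (SD, n = 4; adjusted p = 0.289). The overlapping probe A_51_P322906 had 0.15, 0.06, 0.88 and 0.78, a mean of 0.47 ± 0.42 (adjusted p = 0.315). Because these probes share 37 bases, the match between them is a repeat of 1 measurement and not a second one. The third Fgfr3 probe, A_51_P237613, was well above background in 1 mutant channel and in no control channel, and it has no tested ratio.

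The mutant pools varied more in Fgfr3 than the control pools, with an SD of the levels of 0.51 against 0.12. On the same arrays a list of 7 epicardial genes, all measured in all 8 pools, had median ratios of -0.28, 0.08, 0.48 and 0.50, so its median too was highest on arrays 3 and 4. Wt1, Upk1b, Aldh1a2 and Tbx18 had their highest ratios there. Tcf21 and Upk3b were instead highest on array 2, at 0.65 and 0.47. Krt19 was highest on array 3 (1.97), but higher on array 1 (1.45) than on array 4 (1.36). The median level of the list was 11.71 to 12.34 in the mutant pools and 11.49 to 11.80 in the control pools, and 5 of its 7 genes had a mean ratio above 0. A hypoxia and glycolysis list also had its highest medians on arrays 3 and 4, with 0.98, 0.50, 1.20 and 1.04 on arrays 1 to 4. The part of the epicardium, the outer layer of the heart, in the Fgfr3 ratio was not tested, and neither was that of the hypoxia genes.

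Fgfr1 and Fgfr2, the receptors with broad roles in mesoderm and epithelium, showed no difference beyond the spread of the arrays. The brightest Fgfr1 probe, A_52_P668810, had levels of 8.29, 8.92, 8.50 and 8.36 in mutant pools, against 8.50, 8.70, 8.45 and 8.50 in control pools. Its mean ratio was -0.02 ± 0.20 (adjusted p = 0.936; 95% interval -0.25 to 0.20). Array 2 gave 0.22 and arrays 1, 3 and 4 gave -0.21, 0.04 and -0.15, so the sign differed between arrays. The overlapping probe A_51_P109469, spotted 10 times on each array, had ratios of -0.12, 0.31, -0.02 and -0.17 and a mean of 0.0019 ± 0.22. The SD over its 10 spots was 0.035 to 0.069 within an array, well under the 0.22 between arrays. The other Fgfr1 probes had means of 0.06 ± 0.27 (A_52_P136162) and -0.03 ± 0.08 (A_52_P552062).

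Of the 3 Fgfr2 probes, 1 had mutant levels below control levels without overlap. That probe, A_52_P363110, had levels of 9.92, 10.33, 10.32 and 10.36 in mutant pools, against 10.48, 10.37, 10.47 and 10.48 in control pools. The gap between the groups was small, with 10.3635 in the highest mutant pool and 10.3661 in the lowest control pool, and 4% of all probes had every mutant level below every control level. No probe of the 9 genes had every mutant level above every control level, beside 3.77% of all probes. The mean ratio was -0.22 ± 0.24 (adjusted p = 0.432), with -0.56 on array 1 and -0.15 to -0.04 on the others. The other Fgfr2 probes, which lie at other positions, were near 0: A_51_P432403, with 10 spots, averaged 0.03 ± 0.15, and A_52_P158800 averaged 0.0073 ± 0.14. The probes of Fgfr2 thus did not give 1 direction. In the files A_52_P363110 is tied to another sequence record than the other Fgfr2 probes.

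**Figure D2:**
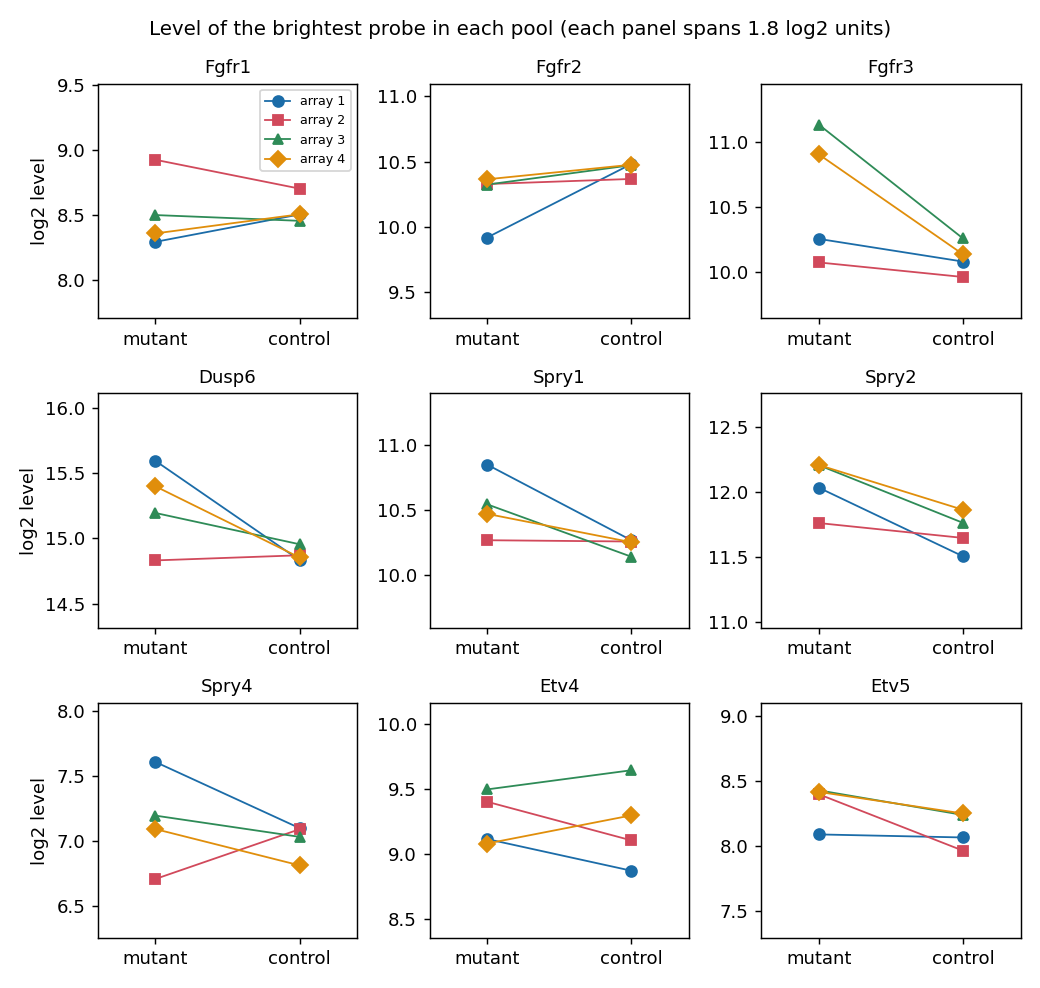
Log2 level (y axis, 1.8 log2 units in each panel) of the brightest probe of each gene in the mutant pool (left) and control pool (right) of each array, joined by a line per array. Control levels of Dusp6, Spry1 and Fgfr3 lie close together while their mutant levels spread, and Etv4 lines run both ways.

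Dusp6, the Erk phosphatase, had a higher level in 3 of 4 mutant pools. Its single probe had levels of 15.60, 14.83, 15.20 and 15.40 in mutant pools 1 to 4, against 14.83, 14.87, 14.96 and 14.85 in control pools 1 to 4. Mutant pools 1, 3 and 4 lay above all control pools, and mutant pool 2 lay below all of them by a margin smaller than the spread of the controls. The ratios were 0.76, -0.04, 0.24 and 0.55, with a mean of 0.38 ± 0.35 (adjusted p = 0.337; 95% interval 0.03 to 0.72). Mutant levels had an SD of 0.33, against 0.05 in the controls. The 200 probes nearest to Dusp6 in brightness had a median ratio of -0.01, and the 95th percentile of 309 probes in its band of brightness was 0.34.

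The Sprouty genes encode inhibitors of receptor tyrosine kinase signalling, and all 4 kept probes for Spry1, Spry2 and Spry4 had mean ratios above 0. Spry1 had levels of 10.85, 10.27, 10.55 and 10.47 in mutant pools, against 10.27, 10.26, 10.14 and 10.25 in control pools. Mutant pools 1, 3 and 4 lay above all control pools, and mutant pool 2 lay level with the highest of them. The ratios were 0.58, 0.01, 0.40 and 0.22, with a mean of 0.30 ± 0.24 (adjusted p = 0.316). The SD of the levels was 0.24 in the mutant pools and 0.06 in the control pools.

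Spry2 was above 0 on all 4 arrays with both of its probes, and these had the lowest adjusted p-values of the 17. The brighter probe, A_52_P368532, had levels of 12.03, 11.76, 12.21 and 12.21 in mutant pools, against 11.51, 11.65, 11.76 and 11.87 in control pools. Mutant pools 1, 3 and 4 lay above all control pools, and mutant pool 2 lay within their range. Its ratios were 0.53, 0.11, 0.44 and 0.34, with a mean of 0.36 ± 0.18 (adjusted p = 0.218; unadjusted p = 0.00694). The second probe, A_51_P445153, lies at another position, is tied to another sequence record and does not overlap the first. It had levels of 8.78, 8.73, 8.73 and 9.03 in mutant pools, against 8.43, 8.15, 8.47 and 8.81 in control pools. Its ratios were 0.35, 0.58, 0.26 and 0.22, with a mean of 0.35 ± 0.16 (adjusted p = 0.210). The probes gave nearly 1 mean, but they ordered the arrays differently: array 2 was lowest with the brighter probe and highest with the other.

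Spry4 was dim and its ratios changed sign. A_52_P204311 had levels of 7.61, 6.71, 7.19 and 7.09 in mutant pools, against 7.10, 7.09, 7.03 and 6.81 in control pools, so the range of the control pools lay inside that of the mutant pools. The ratios were 0.51, -0.38, 0.16 and 0.28, with a mean of 0.14 ± 0.38 (adjusted p = 0.715). The other Spry4 probe, A_51_P250422, was not well above background in any of the 8 channels.

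Dusp6, Spry1, Spry4 and the brighter Spry2 probe had their highest ratio on array 1 and their lowest on array 2. The second Spry2 probe was instead highest on array 2. A list of 6 erythroid genes had median ratios of 1.81, 0.78, -0.23 and -0.01 on arrays 1 to 4, and 8 of 8 genes of a hypoxia and glycolysis list had mean ratios above 0, with medians of 0.98, 0.50, 1.20 and 1.04. The erythroid list was highest on array 1, as these feedback genes were. On array 2, where these genes were lowest, the erythroid median of 0.78 lay above its -0.23 and -0.01. The hypoxia list was lowest on array 2, as these genes were. On array 1, where these genes were highest, the hypoxia median of 0.98 lay below its 1.20 and 1.04. Within the hypoxia list, Vegfa had 1.14, 0.41, 0.94 and 0.61 on arrays 1 to 4, and Egln3 had 2.35, 0.13, 1.73 and 1.23. Both were thus highest on array 1 and lowest on array 2, while the other genes of that list were highest on array 3 or 4. Of the hypoxia genes, Slc2a1, Pgk1, Ldha and Aldoa have a mean log2 intensity above 16, in the range with median ratios above 0 given for the muscle genes. The others, Bnip3, Vegfa, Egln3 and Pdk1, are dimmer and averaged 0.93, 0.78, 1.36 and 0.49. Median levels of the hypoxia list were 15.94 to 16.28 in the mutant pools and 14.98 to 15.31 in the control pools, and those of the erythroid list were 15.94 to 16.69 in the mutant pools and 15.35 to 16.45 in the control pools. Their part in the ratios of the feedback genes was not tested.

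Etv4 and Etv5, the transcriptional readouts, differed in the sign of their ratios on arrays 3 and 4. Etv5 had ratios above 0 on all 4 arrays with both probes. For A_52_P631015 the levels were 8.09, 8.40, 8.43 and 8.42 in mutant pools, against 8.07, 7.97, 8.24 and 8.25 in control pools. Mutant pools 2, 3 and 4 lay above all control pools and mutant pool 1 lay within their range. The mean ratio was 0.20 ± 0.17 (adjusted p = 0.378), and the second probe, A_51_P323579, had 0.20, 0.42, 0.16 and 0.14 with a mean of 0.23 ± 0.13 (adjusted p = 0.296). Both probes gave their highest ratio on array 2.

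Etv4 had levels of 9.12, 9.40, 9.50 and 9.08 in mutant pools, against 8.87, 9.11, 9.64 and 9.30 in control pools. Its ratios were 0.24 and 0.30 on arrays 1 and 2 but -0.15 and -0.22 on arrays 3 and 4, and the mean was 0.04 ± 0.26 (adjusted p = 0.895; 95% interval -0.23 to 0.32). The groups overlapped over most of their range. The control pools of Etv4 spread more than its mutant pools, with SDs of 0.21 in the mutant pools and 0.33 in the control pools.

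**Figure D3:**
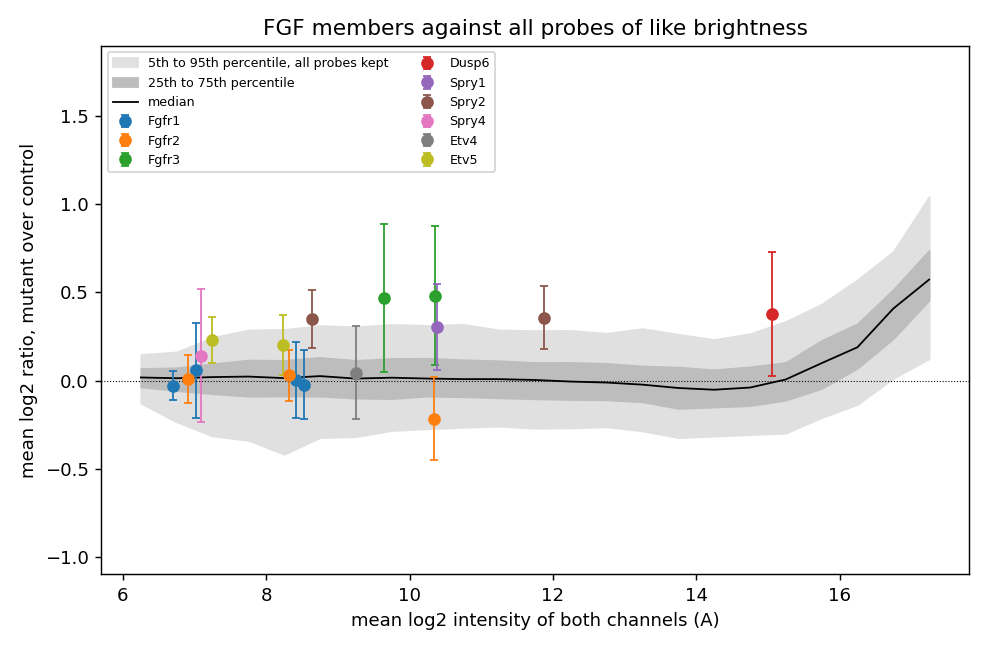
Mean log2 ratio of mutant over control (y axis) against mean log2 intensity of both channels (x axis), with each kept probe of the 9 genes as a point with its SD over 4 arrays. Shaded bands give the middle 50% and the 5th to 95th percentile of all 28794 kept probes. Fgfr3, Spry2 and Dusp6 lie above the upper band edge, Spry1 lies just below it, and Fgfr1 lies in the middle.

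Across the 17 probes, mutant levels had a larger SD than control levels in 13 (76.5%), beside 62.2% of all probes. The median SD was 0.21 in mutant pools and 0.11 in control pools for the 17 probes. Over all probes it was 0.15 in mutant pools and 0.12 in control pools. For Fgfr3, Dusp6 and Spry1, mean ratios of 0.30 to 0.48 stood beside SDs of 0.24 to 0.42.

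Without array 2, 3 arrays remained and 207 of 28794 probes (0.719%) passed the threshold, 0.524% higher and 0.194% lower, and 0 of the 17 probes did (limma). At an unadjusted p under 0.05, 22.9% of all probes were reached. Of the 17, 8 had a higher signal in the mutant at that mark, beside 12.6% of all probes, and 1 had a lower signal, beside 10.3%. The adjusted p was 0.0631 for the brighter Spry2 probe, with a mean ratio of 0.44 ± 0.09 (SD, n = 3). It was 0.0882 for Dusp6 (0.52 ± 0.26), 0.0908 for Spry1 (0.40 ± 0.18) and 0.0995 for the second Spry2 probe (0.27 ± 0.07). The Fgfr3 probes had 0.104 and 0.110 with means of 0.60 each, and Spry4 had 0.122 with 0.32 ± 0.18. Leaving out the array thus raised the means of Fgfr3, Dusp6, Spry1 and Spry4, while the mean of Etv5 was lower at 0.13 ± 0.09 for A_52_P631015. Array 1 moved some values the other way: without it Dusp6 averaged 0.25, Spry1 0.21 and Spry4 0.020. The Fgfr2 probe A_52_P363110 was, without array 2, the one with a lower signal (-0.27 ± 0.25; adjusted p = 0.218).

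Other genes of the FGF pathway were listed in 4 groups by role, and the group medians lay between -0.12 and 0.02. Each gene is represented by its brightest probe, and no measurable gene of the lists passed the threshold, where 0% of 19091 genes passed. At an unadjusted p under 0.05, 14.6% of all genes were reached, 7.13% higher and 7.49% lower, and the median ratio of all genes was 0.0012.

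Of 21 FGF ligand genes on the array, 12 were measurable, with a median ratio of 0.02. Of these, 1 reached an unadjusted p under 0.05, on the lower side: Fgf7, a ligand made by mesenchyme that acts on epithelia, at -0.51 ± 0.42. Its ratio was -1.12 on array 2 and -0.38 to -0.20 on the others, and it averaged -0.31 without array 2. Fgf7 was dim, with a mean log2 intensity of 6.71, and its size depended on the processing. It averaged -0.97 with a background offset of 0 and -1.23 with the deposited ratios. Fgf13, a member that stays inside the cell and does not bind the receptors, averaged 0.13 ± 0.16, and Fgf18 averaged -0.14 ± 0.33. The dimmer probes of Fgf13 averaged 0.29 ± 0.08 and 0.19 ± 0.07. Fgf8 and Fgf10, ligands known from the second heart field, averaged 0.17 ± 0.20 and 0.01 ± 0.22. Fgf10 was dim too, with a mean log2 intensity of 6.66. Fgf7, Fgf8 and Fgf10, like Fgfr4, Map2k1, Dusp7, Etv1 and Ier3 below, were named after their values were seen.

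Of 11 other receptors and co-receptors, 4 reached an unadjusted p under 0.05 and all of these were lower in the mutant, with a list median of -0.12. Gpc1, a heparan sulfate proteoglycan that helps FGFs to bind, had ratios of -0.38, -0.64, -0.41 and -0.38 and a mean of -0.45 ± 0.12 (adjusted p = 0.156). Its levels were 13.61, 14.01, 13.93 and 13.87 in mutant pools, against 13.98, 14.65, 14.34 and 14.26 in control pools. The related glypican Gpc3 averaged -0.22 ± 0.14, and Fgfr4, the receptor that was no member here, averaged -0.22 ± 0.07. Fgfr4 was dim, with a mean log2 intensity of 7.32, and its other probes averaged 0.02 ± 0.07 and -0.11 ± 0.19.

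Of 16 transduction genes, 1 reached an unadjusted p under 0.05 on the higher side and 1 on the lower side, with a median of 0.02. Map2k1, which encodes the Erk-activating kinase Mek1, had ratios of 0.24, 0.52, 0.71 and 0.78 and a mean of 0.56 ± 0.24 (adjusted p = 0.161). The phosphatase Ptpn11 averaged 0.08 ± 0.11 with its brightest probe, but 0.58 ± 0.48 and 0.23 ± 0.23 with its others. Of 15 other feedback and target genes, 1 was higher and 2 were lower at that mark, with a median of -0.02. Dusp4, a nuclear phosphatase of Erk, had ratios of 0.47, -0.07, 0.43 and 0.48 and a mean of 0.33 ± 0.27 (adjusted p = 0.311). Its dimmer probe averaged 0.25 ± 0.36. The lower genes were Dusp7, another Erk phosphatase, at -0.34 ± 0.18, and Etv1, a relative of Etv4 and Etv5, at -0.19 ± 0.13. Flrt3, a membrane protein that binds FGF receptors, averaged -0.14 ± 0.17, and 0.02 ± 0.27 with its dimmer probe. Ier3, an immediate early gene, averaged 0.85 ± 1.12, with 2.22 on array 1 and -0.51 on array 2.

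**Figure D4:**
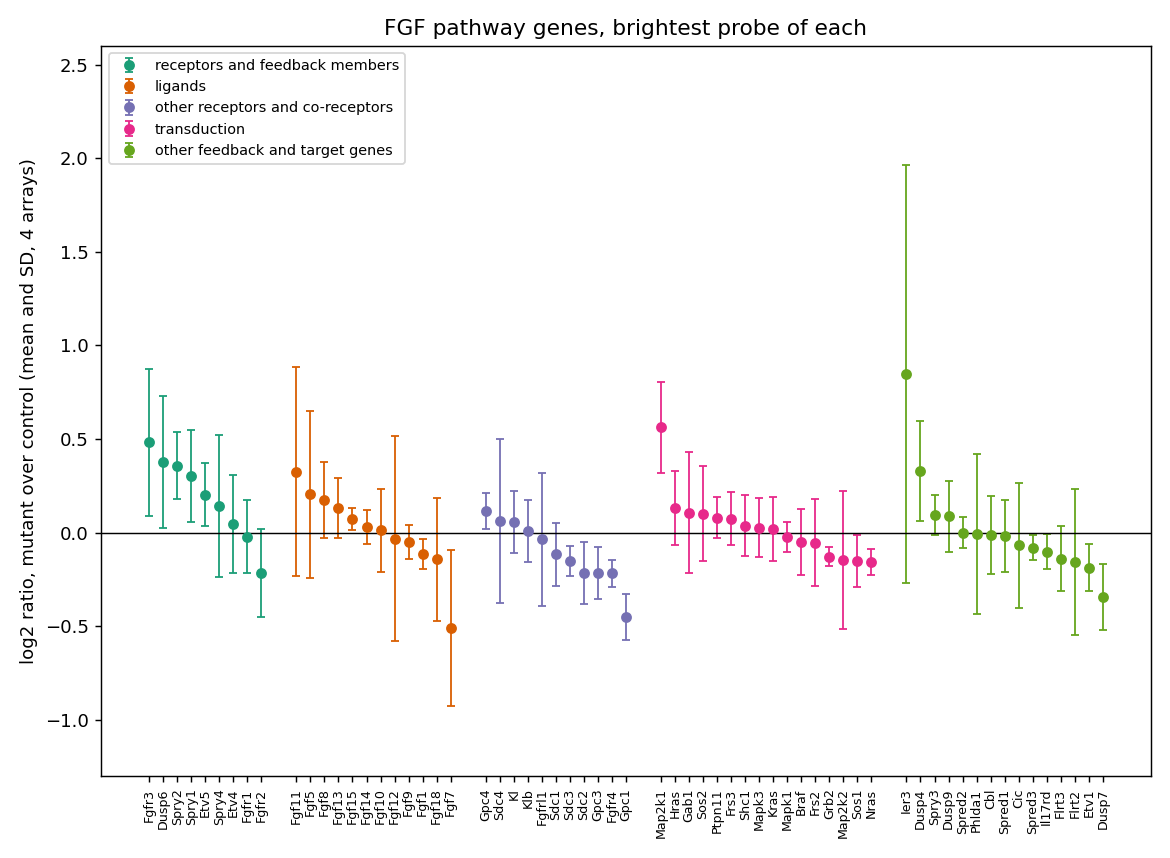
Mean log2 ratio of mutant over control with SD over 4 arrays (y axis) for the brightest probe of each gene (x axis), by group, each group sorted by its mean. Of the 9 members, 7 lie above 0 before error, beside 9602 of all 19091 measurable genes. So do 7 of 12 ligands and 9 of 16 transduction genes. Among other receptors and co-receptors it is 4 of 11, and among other feedback genes 4 of 15.

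The count of probes past the threshold changed under 2 of the other settings. With median centring in place of a brightness-dependent curve, the median of all 28794 probes moved to 0.21 and 10806 probes passed the threshold, 10064 of them on the higher side, 7 of the 17 among them. Relative to that shift, Dusp6 at 1.00, Fgfr3 at 0.79, Spry2 at 0.73 and Spry1 at 0.61 were above the median of all probes. The shift was not the same for every probe, so the median of 0.21 does not give the shift of a single probe. Ptpn11 and Dusp6 are near in brightness, with a mean log2 intensity of 15.42 and 15.06. Ptpn11 went from 0.08 to 0.74 under median centring, and Dusp6 from 0.38 to 1.00. With arrays weighted by their agreement, array 2 had a weight of 0.30 and arrays 3 and 4 of 2.07 and 2.03. There 1754 of 28794 probes passed, and of the 17 both Fgfr3 probes and the brighter Spry2 probe were past the threshold.

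**Figure D5:**
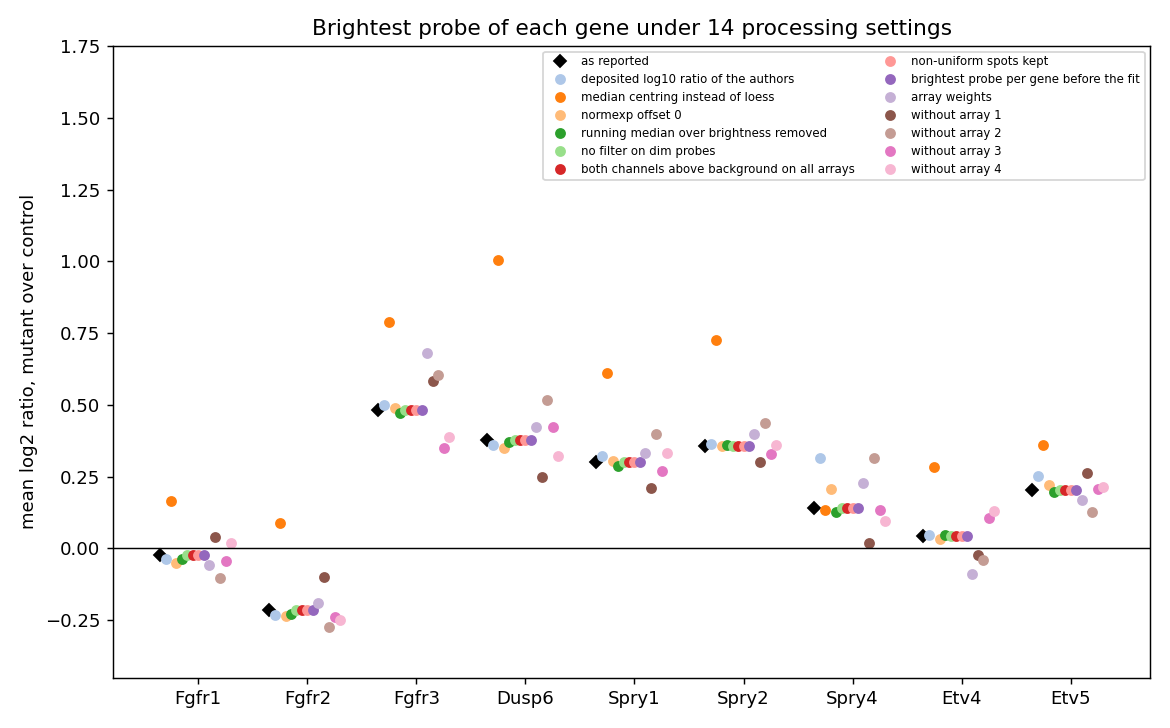
Mean log2 ratio of mutant over control (y axis) of the brightest probe of each of the 9 genes (x axis) under 14 settings, with a black diamond for the value as reported. Fgfr3, Dusp6, Spry1, Spry2, Spry4 and Etv5 stay above 0 in every setting, and median centring gives the highest value for 8 of the 9 genes.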

How the data were processed

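The authors deposited the output of Agilent Feature Extraction 9.5.1 for each array, as named in the submitters' processing notes and the file headers. For each spot and channel the deposited intensity is a mean over pixels, with the median of the local background in another column. A deposited log10 ratio of red over green came from signals that the scanner software had corrected for background and dye, per the file headers. Deposited flags marked spots as well above background, saturated or non-uniform. Per the file headers the arrays shared 1 slide and 1 scan, so neither could be tested as a batch. Depth is not defined for arrays, and their number, 4, limits the precision.

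Background was corrected by normexp with an offset of 50, then loess normalized each array within itself, giving control spots a weight of 0 (limma 3.58.1, R 4.3.3). Spots of a probe were averaged, and 3 non-uniform spots, 0 of them on a member, were left out. A probe was kept when 1 channel or both stood well above background on 3 or more of the 4 arrays. The 2-sided test of the mean ratio against 0 used lmFit and eBayes. P-values were adjusted by Benjamini-Hochberg over all 28794 probes, with a threshold of 0.05. Every adjusted p comes from this limma fit unless another setting is named. Channel levels were made comparable by Aquantile normalization after loess. Intervals are 95% intervals from the moderated fit.

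Each array gives 1 ratio, so n = 4. Labels give 4 biological replicates of pooled tissue. In data simulated over 28794 probes, 75 of 100 probes changed by a log2 of 1 and 90 of 100 changed by a log2 of 2 were called, with 9 unchanged probes called. The simulation used normal noise and 200 planted changes, which ease the adjustment for many probes, while 0 probes passed in the data themselves. Changes as small as the member ratios were not simulated, so it does not tell how often those would be called.

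All members and all their probes are named, and each pathway list is represented by its genes past the threshold or, with none, the 2 of highest brightness, with others named where said. An item of the transduction list is not reported here. The members and lists were chosen with earlier results of these data known. Probe names were updated through a RefSeq gene table: 22951 probes by accession, 6659 by symbol and 3109 by synonym, while 8455 kept the name in the files. Marker lists of cushion mesenchyme (median ratio -0.38) and endocardium (0.05) were measured too, as were leukocyte genes (-0.34, with -1.84 on array 2). Alternatives covered the deposited log10 ratio, median centring, an offset of 0, removal of a running median over brightness, other filters, 1 probe per gene, array weights and each array left out.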

Additional observations from a re-analysis of the deposited data

Results flagged for a closer look

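Among 67 sets of 4 values examined, 12 held 1 pool or array far from the other 3. Independent normal values would give about 5% of such sets, but the ratio and the levels of a probe are not independent. The share flagged over all probes was not computed, so the count is not read as a trait of these genes. The ratio of Fgfr1 probe A_52_P136162 was 0.46 on array 2, against -0.10 to -0.06 on the others, and its mutant level there was 7.32, against 6.91 to 6.98. The mutant level of Fgfr1 probe A_52_P552062 was also highest on array 2, at 6.86 against 6.61 to 6.65. For Fgfr2 probe A_52_P363110 the mutant level was 9.92 on array 1, against 10.32 to 10.36 on the others, and the control level was 10.37 on array 2, against 10.47 to 10.48.

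The control level of Spry1 was lowest on array 3, at 10.14 against 10.25 to 10.27. The mutant level of Spry2 probe A_51_P445153 was 9.03 on array 4, against 8.73 to 8.78 on the others. The mutant level of Etv5 probe A_52_P631015 was 8.09 on array 1, against 8.40 to 8.43. Among other pathway genes, Fgf8 had a ratio of -0.13 on array 3, against 0.26 to 0.29, and Gpc1 had -0.64 on array 2, against -0.41 to -0.38. Dusp4 had -0.072 on array 2, against 0.43 to 0.48, and Dusp7 had -0.61 on array 3, against -0.27 to -0.23.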

How the results depend on the processing

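Of 408 values of 32 single results under 13 other settings, 358 kept their direction and side of the threshold, 18 moved past it and 32 changed sign. Fgfr3, Dusp6, Spry1, Spry2, Spry4 and Etv5 had ratios above 0 in all of these settings.

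Median centring moved the median of all probes to 0.21 and single probes by unequal amounts, and 10806 of 28794 probes passed. Among these were 7 member probes, 3 ligands, 2 other receptors and co-receptors, 11 transduction genes and 6 other feedback genes. Tbx3 was -0.89 under this setting (adjusted p = 0.00316). There Fgfr1 A_52_P668810 was 0.17, Fgfr2 A_52_P363110 was 0.089, Fgfr2 A_52_P158800 was -0.038, Fgf18 was 0.14, Gpc3 was 0.36, Gpc1 was 0.071, Flrt3 was 0.32, Fgf10 was -0.11, Dusp7 was 0.040 and Etv1 was 0.15.

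With array weights, 1754 of 28794 probes passed. Among these were 3 member probes, 1 co-receptor (Gpc1), 1 transduction gene (Map2k1) and 1 other feedback gene (Dusp4). Tbx3 was -1.33 under this setting (adjusted p = 0.0153). There Fgfr1 A_51_P109469 was -0.073, Fgfr1 A_52_P136162 was -0.049, Etv4 was -0.089, Fgf18 was 0.0051 and Fgf10 was -0.012. With the deposited log10 ratios, Fgfr1 A_51_P109469 was -0.016 and Ptpn11 was -0.028, and with an offset of 0 Fgfr1 A_51_P109469 was -0.025. With a running median removed, Fgfr1 A_51_P109469 was -0.020, Fgfr2 A_52_P158800 was -0.0035 and Tbx3 was -1.32 (adjusted p = 0.0471). Tbx3 stayed at -1.35 with an adjusted p of 0.0425 without a filter, 0.0468 with both channels above background and 0.0454 with the brightest probe per gene. With the brightest probe per gene, 4 member genes had a higher signal at an unadjusted p under 0.05 instead of 7 probes. There 14.6% of all 19091 genes were reached in either direction.

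Leaving out 1 array at a time gave 2 to 8 higher member probes at that mark, with 2 without array 3 and 3 without array 4, and 0 to 1 lower. The share of all probes reached in either direction was 7.3% to 22.9%. Ligands past the threshold numbered 0 to 1, with Fgf11 at 0.60 without array 2 (adjusted p = 0.0467). Tbx3 lay between -1.39 and -1.32, with an adjusted p of 0.0286 without array 2, 0.362 without array 1, 0.658 without array 3 and 0.559 without array 4. The ranges were -0.10 to 0.040 for Fgfr1 A_52_P668810, -0.10 to 0.059 for A_51_P109469 and -0.078 to 0.11 for A_52_P136162. They were -0.021 to 0.085 for Fgfr2 A_51_P432403, -0.027 to 0.074 for A_52_P158800, -0.040 to 0.13 for Etv4 and -0.063 to 0.10 for Fgf10. The cause of these changes was not tested.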
